A study of Mus musculus with 6 samples.

Results

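A set of 54 genes that act in mitosis was followed from wild type to *Tcf7l1* mutant intestinal epithelium of the mouse embryo. The members were chosen by symbol as known parts of the mitotic machinery, 54 of the 23366 genes counted, and fall into 9 sub-groups by role. Measured expression played no part in that rule, although the set was put together with earlier results of these data known. RNA-sequencing of EpCAM+ small intestinal epithelium was carried out at E13.5, with 500 sorted living cells in each library and 3 libraries for each genotype. EpCAM is an adhesion protein of epithelial cells, and TCF7L1 is a member of the TCF/LEF family that acts mostly as a transcriptional repressor within the WNT pathway.

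The mutant libraries are labelled Shh-cre-egfp:Tcf7l1 lox/lox, in which a Cre-EGFP fusion expressed from the *Shh* locus recombines the floxed *Tcf7l1* gene in *Shh*-expressing cells such as the gut epithelium. The others are labelled wild type. No library is labelled as carrying Cre with an intact *Tcf7l1*, so the loss of *Tcf7l1* cannot be told apart from the presence of Cre or from the altered *Shh* locus. *Tcf7l1* itself had 476, 474 and 364 normalised counts in the wild type and 41.4, 33.0 and 73.0 in the mutants, a log2 fold change of -3.16 (SE 0.26, adjusted p = 4.2e-07). *Shh* fell from 481 ± 65.8 (SD, n = 3) to 198 ± 22.6 (log2 fold change -1.28, adjusted p = 6.1e-05). The groups also differed in sex-linked transcripts: *Xist* had no count in any wild type library and 229 to 424 in the mutants, and the Y-linked gene *Ddx3y* had 1837 to 2254 counts in the wild type and none in the mutants. Sex and genotype therefore cannot be told apart in any comparison given here.

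Total counts lay between 18216537 and 20397278 per library. The 9 epithelial markers were all detected and summed to 8026 to 8543 CPM (counts scaled to a common library size) in the wild type and 7768 to 7970 in the mutants. Mesenchymal markers (8 of 8 detected) summed to 7.01 to 10.99 and 6.47 to 26.3 CPM, and neural crest markers (5 of 5) to 9.22 to 10.7 and 8.28 to 11.9 CPM. Of 9 blood markers, 3 had any count, with sums of 1.12 to 1.53 CPM in the wild type and 0.212 to 0.510 CPM in the mutants, and the globins *Hba-a1*, *Hba-a2*, *Hbb-b1*, *Hbb-b2* and *Hbb-bh1* and the leukocyte gene *Ptprc* were at 0. Endothelial markers reached at most 0.633 CPM in the wild type and 1.11 CPM in the mutants, with 2 of 4 detected and *Kdr* and *Cdh5* at 0. The part of these other cells in the results was not tested. The labels state biological replicates without saying which embryos or litters went into each, so the p-values measure the spread between these libraries.

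During mitosis, cyclin B bound to CDK1 starts the breakdown of the interphase nucleus, condensin compacts the chromosomes, and kinesins and microtubule factors build the spindle. Kinetochores, protein assemblies on the centromeres, bind spindle microtubules, and the spindle checkpoint holds back the anaphase-promoting complex (APC/C) until every kinetochore is attached. Most of these genes are transcribed in G2 and M phase. In a growing tissue such as the embryonic gut, their RNA can therefore follow the number of dividing cells. Bulk libraries cannot tell more cells in division from more RNA per dividing cell.

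Most of the mitotic genes were expressed at higher levels in the mutant epithelium. A gene was called when its adjusted p was under 0.01, its absolute log2 fold change at least 0.5 and its mean normalised count at least 50. By this rule 20 of 54 members (37.0%) were upregulated, where 2.78% of all tested genes were, and 0 were downregulated, where 5.83% of all tested genes were. At adjusted p under 0.05 with no minimum fold, 39 members (72.2%) were higher against 13.6% of all tested genes, and 0 were lower against 15.1%. The remaining 15 members passed in neither direction. DESeq2 gave 21 called higher, 39 higher at adjusted p under 0.05 and 0 lower, and no member was lower at an unadjusted p under 0.05 by either tool. In edgeR, 40 members were higher at an unadjusted p under 0.05 (against 18.6% of all tested genes) and 0 lower (against 21.6%).

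All 54 members passed the filter on low counts. Their median log2 fold change was 0.40 (1.32-fold), with quartiles of 0.24 and 0.54 and a range from -0.29 to 0.84, and the median over all 12501 tested genes was -0.04. The changes were of modest size: the 39 members that rose did so by 1.21- to 1.79-fold. Of the 54 members, 48 had a log2 fold change above 0, as did 45.7% of all tested genes. Every mutant library lay above every wild type library for 37 members (68.5%, against 20.8% of all tested genes), every mutant library lay below for 0 (against 22.2%), and the groups overlapped for 17. Called genes of the whole transcriptome were higher in 32.3% of cases in this fit, in 17.3% with library size as the only scaling, and in 63.6% to 65.5% after a correction for gene length, GC content or both. These scalings moved the median of all tested genes, by -0.11 with library size alone and by 0.12 to 0.13 with the corrections, and the members' median is therefore best read against it. The members' median exceeded that of all tested genes by 0.44 in this fit and by 0.38 to 0.54 across the alternatives.

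**Figure D1:**
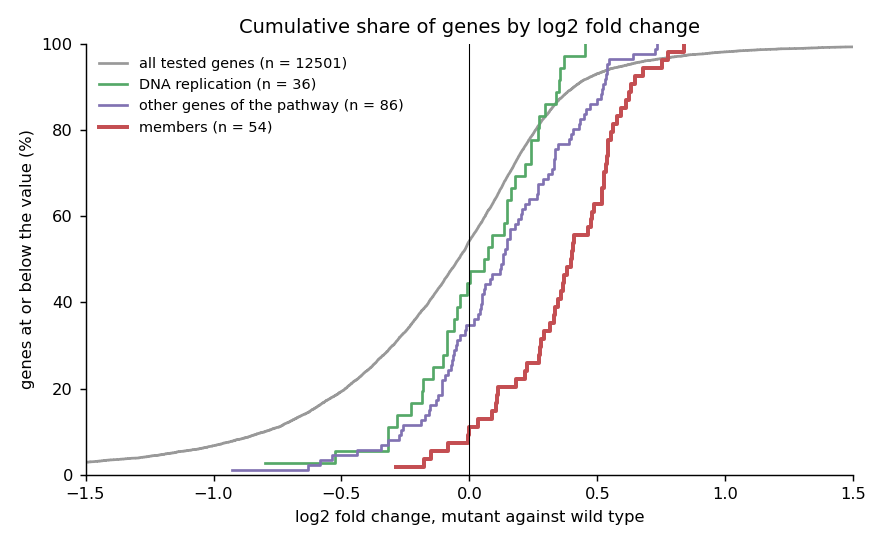
Cumulative share of genes (%) by log2 fold change, mutant against wild type, for the 54 members, 86 other genes of the pathway, 36 DNA replication genes and all 12501 tested genes. The member curve lies to the right, with its median at 0.40 beside -0.04 for all tested genes.

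The summed expression of the members was 7900.4, 7801 and 8882 CPM in the wild type libraries and 11299, 11130.0 and 10858 CPM in the mutants. The groups did not overlap, and the means of 8195 ± 598 and 11096 ± 223 CPM (SD, n = 3) stood in a ratio of 1.35. Expressed as the deviation of each member from its mean log2 CPM over the 6 libraries, the median member stood at -0.22, -0.28 and -0.09 in the wild type and at 0.25, 0.17 and 0.20 in the mutants. The mutants thus had similar medians, whereas wild type 3 stood nearer to them than the other wild type libraries did. The same held over all tested genes, by the mean chi-square per gene, a measure of how far the counts of 2 libraries differ. It was 29.2 to 33.8 between wild type 3 and the mutants, and 41.1 to 57.5 for wild type 1 and wild type 2. Within the wild type it was 16.6 and 18.6 for wild type 3 and 8.62 between the others. Wild type 3 was the highest wild type library for 37 of 54 members. Without it, 25 members were called and the median log2 fold change was 0.49, and without wild type 2, 13 were called and the median was 0.35. Over all tested genes, 4.04% were called higher without wild type 3 and 2.04% without wild type 2. In the mutants 52, 43 and 49 members lay above their mean, and in the wild type 7, 6 and 11.

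**Figure D2:**
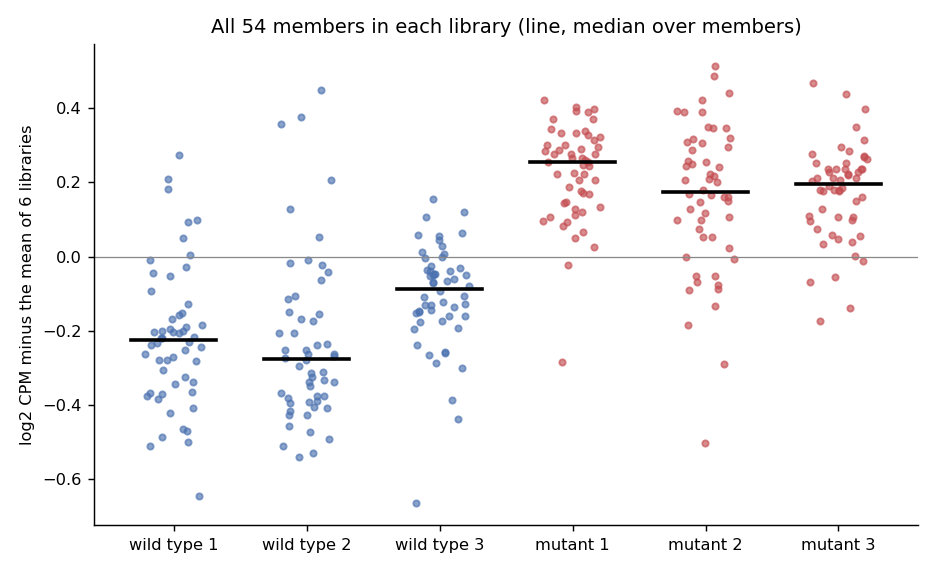
Deviation of each of the 54 members from its mean log2 CPM over the 6 libraries (points) and the median over members (line), by library. The medians lie from -0.28 to -0.09 in the wild type and from 0.17 to 0.25 in the mutants, and single members cross 0 in every library.

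Measured per kilobase of exon (RPKM), the most abundant members in the wild type were *Ccnb2* (186 ± 24.6), *Bub3* (179 ± 18.4), *Cdc20* (151 ± 7.51) and *Ube2c* (111 ± 18.4; SD, n = 3). *Ccnb2* and *Bub3* differed by less than their SD. In the mutants the RPKM of *Bub3* was 271 ± 16.1 and that of *Ube2c* 187 ± 14.4, while *Ccnb2* stood at 201 ± 2.21 and *Cdc20* at 154 ± 6.44. The median member had a wild type RPKM of 34.8. The least abundant were *Cenpf* (5.03 ± 0.477), *Cdc25b* (2.88 ± 1.14) and *Espl1* (1.67 ± 0.311), of which *Cenpf* rose and the others did not pass the test.

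The promoters of these genes share letters that the choice of members did not use. Many promoters of late cell cycle genes carry a CHR element (cell cycle genes homology region) near the start of transcription, often with CCAAT boxes upstream, and through these elements the MuvB complex is known to repress the genes in resting cells and, with B-MYB and FOXM1, to activate them in G2 and M phase. RefSeq promoter windows (GRCm38.p6, from 250 bases before to 50 after the annotated start) matched 46 of 54 members by symbol. The unmatched members were *Ccna2*, *Cdc25c*, *Spc24*, *Kif20a*, *Aurkb*, *Incenp*, *Tpx2* and *Smc4*. The letters TTTGAA, on either strand, were found for 32 of the 46 (69.6%), for 20.2% of all genes with a window and for 14.1% of those that were tested here. CCAAT on either strand was found for 35 (76.1%), against 41.1% and 43.5%, and both together for 28 (60.9%), against 8.0% and 5.8%. Neither motif contains the other, although matches may share an end base. Windows of 5 members are shown over the 200 bases before the start, 5′ to 3′ on the strand of the gene, because they span members that were called and members that did not pass. Capitals mark TTTGAA or its reverse complement TTCAAA and CCAAT or its reverse complement ATTGG.
Ube2c, chr2:164769729-164769928, plus strand: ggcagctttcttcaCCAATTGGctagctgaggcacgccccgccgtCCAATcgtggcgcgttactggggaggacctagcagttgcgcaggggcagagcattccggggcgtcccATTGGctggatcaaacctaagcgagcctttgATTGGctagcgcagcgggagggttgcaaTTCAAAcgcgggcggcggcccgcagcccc
Cdk1, chr10:69352913-69353112, minus strand: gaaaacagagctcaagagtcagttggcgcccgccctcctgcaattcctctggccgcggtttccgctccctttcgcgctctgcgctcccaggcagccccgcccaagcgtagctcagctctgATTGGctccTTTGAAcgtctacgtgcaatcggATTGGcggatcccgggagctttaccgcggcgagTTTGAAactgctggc
Top2a, chr11:99024190-99024389, minus strand: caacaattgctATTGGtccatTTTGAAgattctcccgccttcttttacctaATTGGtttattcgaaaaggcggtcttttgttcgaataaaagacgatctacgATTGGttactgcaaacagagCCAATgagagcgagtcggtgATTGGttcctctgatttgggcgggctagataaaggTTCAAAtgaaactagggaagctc
Cdc20, chr4:118437344-118437543, minus strand: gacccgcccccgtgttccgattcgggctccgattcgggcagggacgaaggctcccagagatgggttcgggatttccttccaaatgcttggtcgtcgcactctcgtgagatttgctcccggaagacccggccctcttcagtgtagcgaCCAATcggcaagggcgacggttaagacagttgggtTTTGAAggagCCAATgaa
Fzr1, chr10:81378371-81378570, minus strand: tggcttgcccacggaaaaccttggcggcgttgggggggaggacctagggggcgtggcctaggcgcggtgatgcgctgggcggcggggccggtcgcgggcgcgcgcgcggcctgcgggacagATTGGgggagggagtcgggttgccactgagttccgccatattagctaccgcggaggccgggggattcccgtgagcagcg

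*Ube2c*, *Cdk1* and *Top2a*, all called higher, each have CHR letters within the last 100 bases before the start, at -29, at -71 and -15, and at -23, the last beside a further match at -179. *Cdc20*, which did not pass the test, has them at -18 together with 2 CCAAT matches. *Fzr1*, which also did not pass, has 1 CCAAT match and no CHR letters in the window. The joined capitals in the *Ube2c* window are overlapping matches on both strands. A match describes the letters only and says nothing of binding in this tissue.

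Counted over the window, the CHR letters of members lay close to the start. They were present between 50 bases before the start and the start in 23.5% of 51 member windows and in the first 50 bases after it in 37.3%, beside 2.82% and 2.25% of all windows. Further upstream the shares for members and all windows were 3.92% and 3.29% from -100 to -51, and 11.8% and 3.67% from -150 to -101. They were 5.88% and 3.97% from -200 to -151, and 1.96% and 4.07% from -250 to -201. Members that rose and members that did not both carried the letters. Of 34 members with a window that were higher at adjusted p under 0.05, 24 had CHR letters (70.6%), as did 8 of the 12 others (66.7%). For CHR letters from 100 bases before the start onwards the counts were 24 of 34 and 6 of 12, for CCAAT 27 and 8, and for both motifs 22 and 6, differences that were not tested.

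**Figure D3:**
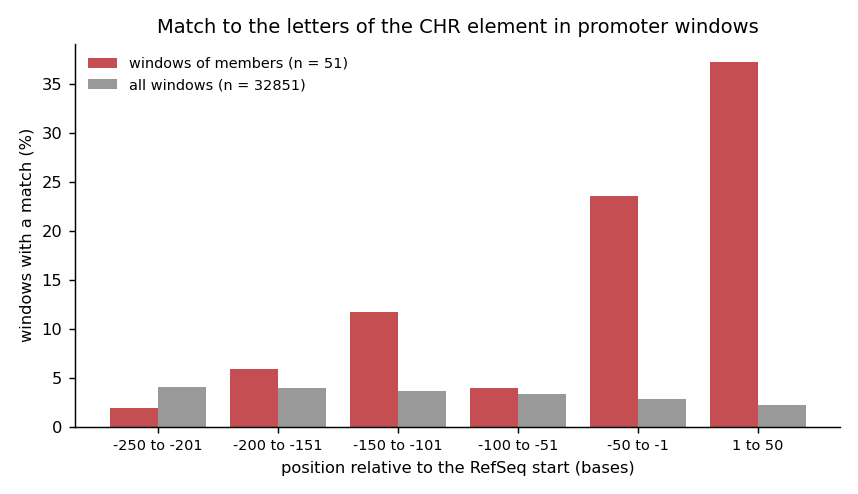
Share of promoter windows (%) with a CHR match in each 50-base bin relative to the RefSeq start, for 51 windows of members and all 32851 windows. The member bars are highest in the bins next to the start, at 23.5% and 37.3%.

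The kinetochore genes rose together. All 10 were higher at adjusted p under 0.05, 5 were called, and their median log2 fold change was 0.50 with a range from 0.34 to 0.84. *Spc24* encodes a subunit of the NDC80 complex, the main microtubule-binding assembly of the outer kinetochore, and lies at chr9:21559886-21564733 on the minus strand of mm9. It had 1844, 1810.5 and 2146 normalised counts in the wild type and 3416, 3385 and 3569 in the mutants. The groups were far apart, and *Spc24* showed the highest log2 fold change of the 54 members, 0.84 (SE 0.08, 1.79-fold, adjusted p = 3.2e-06). Its partner *Spc25* had 2896, 2659.8 and 3418 in the wild type and 4473, 4548 and 3907 in the mutants, without overlap (log2 fold change 0.53, SE 0.09, adjusted p = 8.0e-04). On the other arm of the complex, *Ndc80* had 1434, 1332 and 1854 in the wild type and 1958, 1854 and 2017 in the mutants, wild type 3 lay level with mutant 2, and the log2 fold change was 0.34 (SE 0.11, adjusted p = 0.034). *Nuf2*, its dimer partner, had a log2 fold change of 0.46 (adjusted p = 0.0084).

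*Cenpa* encodes the histone H3 variant that marks centromeres, and had 3204, 3767 and 4350.1 normalised counts in the wild type and 5582, 5648 and 5249 in the mutants. Its wild type libraries were widely spread, yet all lay below the mutants (log2 fold change 0.54, SE 0.09, adjusted p = 6.3e-04). *Cenpe*, the kinetochore motor that carries chromosomes to the spindle equator, had 1403, 1254 and 1454 in the wild type and 2085, 1858 and 2116 in the mutants (log2 fold change 0.56, SE 0.09, adjusted p = 4.8e-04). *Cenpf*, a large protein of the outer kinetochore, had 1158, 1195 and 996 in the wild type and 1623, 1516 and 1779 in the mutants (log2 fold change 0.55, SE 0.10, adjusted p = 0.0011). Neither gene overlapped between groups, and for *Cenpf* wild type 3 was the lowest library, unlike for most members. Among the inner kinetochore proteins that sit on CENP-A chromatin, *Cenph* (log2 fold change 0.48, adjusted p = 0.0041), *Cenpn* (log2 fold change 0.40, adjusted p = 0.018) and *Cenpk* (log2 fold change 0.34, adjusted p = 0.037) rose by smaller log2 fold changes. *Cenpa* had a log2 fold change of 0.44 without wild type 1, *Spc25* of 0.45 without wild type 2 and 0.49 without mutant 2, *Cenpf* of 0.49 without wild type 3 or mutant 3, and *Cenpe* of just under 0.50 without wild type 2, which ended those calls. *Cenpk*, *Cenpn* and *Ndc80* no longer passed an adjusted p of 0.05 without wild type 1, wild type 2 or mutant 1, with values of 0.06 to 0.16, nor did *Cenpk* (0.12) without mutant 2 or *Ndc80* without mutant 2 (0.054) or mutant 3 (0.11).

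**Figure D4:**
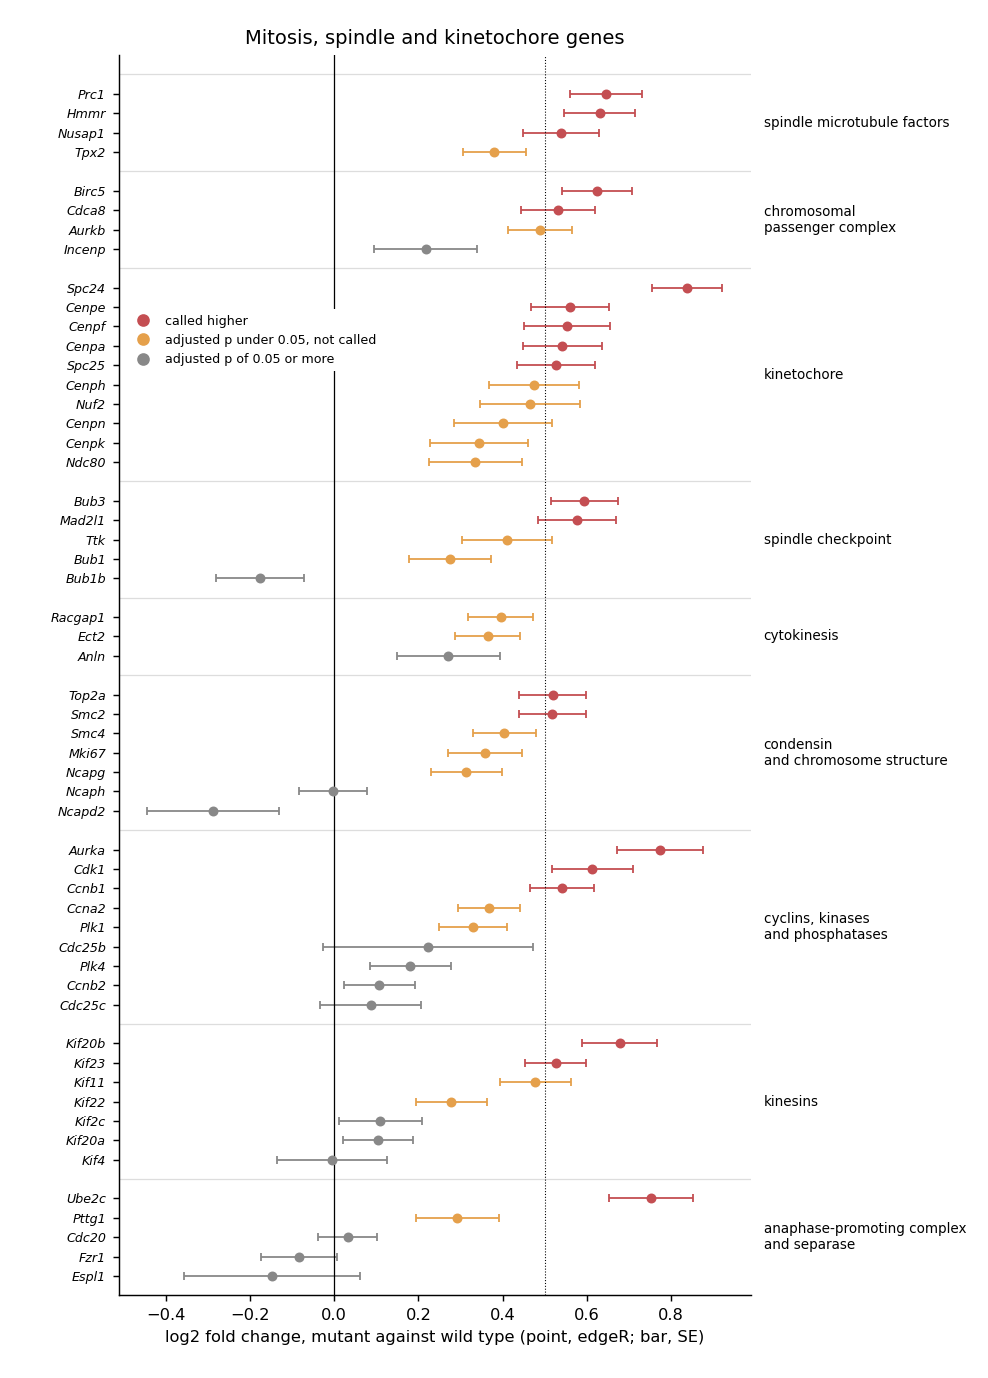
Log2 fold change, mutant against wild type (points, edgeR estimate; bars, SE), of the 54 members by sub-group; the dotted line marks the limit of 0.5. The 10 kinetochore genes and 4 spindle microtubule factors are all higher at adjusted p under 0.05, while the other sub-groups also hold grey points, down to -0.29 for *Ncapd2*.

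The spindle microtubule factors showed the highest median of the sub-groups, 0.58, and all 4 were higher in every mutant library than in every wild type library. *Prc1* encodes the bundler of antiparallel microtubules in the central spindle and had 5131, 4628 and 5692 normalised counts in the wild type and 8462, 8436 and 7278 in the mutants (log2 fold change 0.65, SE 0.09, adjusted p = 6.0e-05). *Hmmr*, whose product helps to organise spindle poles, had 2034, 1872 and 2302 in the wild type and 3143, 3271 and 3198 in the mutants (log2 fold change 0.63, SE 0.08, adjusted p = 7.0e-05). *Nusap1*, which binds and stabilises microtubules around chromosomes, had 3502, 3577 and 4517 in the wild type and 5653, 5751 and 5440.3 in the mutants (log2 fold change 0.54, SE 0.09, adjusted p = 4.8e-04), with wild type 3 well above the other wild type libraries. *Tpx2*, the activator of Aurora A on the spindle, rose by a log2 fold change of 0.38 (adjusted p = 0.0016), short of a call. *Nusap1* lost its call when wild type 1 or wild type 2 was left out, at a log2 fold change of 0.47 or 0.49.

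The chromosomal passenger complex corrects faulty attachments and later drives cytokinesis, with Aurora B as its kinase and survivin, borealin and INCENP as its other subunits. *Birc5*, encoding survivin, had 4629, 5122 and 5797 normalised counts in the wild type and 7594, 8597 and 7769.9 in the mutants, well apart (log2 fold change 0.62, SE 0.08, adjusted p = 7.4e-05). *Cdca8*, encoding borealin, had 5453, 5435 and 6942 in the wild type and 8632, 8893 and 8246 in the mutants (log2 fold change 0.53, SE 0.09, adjusted p = 4.7e-04). *Aurkb* had 3107, 3404 and 3675 in the wild type and 4766, 4791 and 4727 in the mutants, a tight mutant group that lay above all wild type libraries. Its log2 fold change of 0.49 (SE 0.08, adjusted p = 2.6e-04) was just under the limit for a call. *Incenp*, the scaffold of the complex, had a log2 fold change of 0.22 (adjusted p = 0.20) and overlapped between groups. The call for *Cdca8* was lost without wild type 1 or wild type 2, each with a log2 fold change of 0.47.

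Among the cyclins, kinases and phosphatases, 5 of 9 were higher at adjusted p under 0.05 and 3 were called, with a median log2 fold change of 0.33. *Aurka* encodes Aurora A, the kinase of centrosomes and spindle poles (chr2:172181690-172196035, minus strand, mm9). It had 3257, 3214 and 4243 normalised counts in the wild type and 6218, 6631 and 5466 in the mutants, with wild type 3 the highest of its group and still below every mutant. The means rose from 3571 ± 582 (SD, n = 3) to 6105 ± 591, a log2 fold change of 0.77 (SE 0.10, 1.71-fold, adjusted p = 6.2e-05). *Cdk1*, the kinase that drives entry into mitosis (chr10:68799383-68815686, minus strand), had 4531, 4158 and 5572 in the wild type and 7092, 7949.6 and 6771 in the mutants (log2 fold change 0.61, SE 0.10, adjusted p = 3.1e-04). Its cyclin partner *Ccnb1* (chr13:101548605-101556525, minus strand) had 6409, 6491 and 7680.5 in the wild type and 10139, 10079 and 9722 in the mutants (log2 fold change 0.54, SE 0.08, adjusted p = 1.1e-04). *Cdk1* and *Ccnb1* did not overlap between groups. *Ccnb1* had 3 further loci in the mm9 genome sequence at 95% identity or more over at least 50% of its transcript, so its counts are less certain. Without wild type 1 the log2 fold change of *Ccnb1* was 0.49 and the call was lost.

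*Plk1*, the Polo kinase of centrosome maturation and spindle assembly, had 3220.2, 3321 and 3336 normalised counts in the wild type and 4538, 3685 and 4190.3 in the mutants. Mutant 2 lay nearest to the tightly grouped wild type libraries, and the log2 fold change was 0.33 (SE 0.08, adjusted p = 0.0071), or 0.26 with an adjusted p of 0.06 without mutant 1. *Ccna2*, the cyclin of S and G2 phase, rose by a log2 fold change of 0.37 (adjusted p = 0.0019), although 14.6% of its exons overlap the opposite-strand gene *Exosc9* and the strand setting of the counting was not given. The others did not pass: *Ccnb2* at 0.11 (adjusted p = 0.37), the centriole kinase *Plk4* at 0.18 (adjusted p = 0.17), and the CDK1-activating phosphatases *Cdc25b* at 0.22 (adjusted p = 0.54) and *Cdc25c* at 0.09 (adjusted p = 0.63). The pair of B-type cyclins thus had unequal values. *Ccnb2*, described here after its values were seen, had 5198, 5158 and 6459 in the wild type and 6002, 6112 and 5991 in the mutants, and wild type 3 exceeded all mutants. The ratio of *Ccnb1* to *Ccnb2* counts was 1.23, 1.26 and 1.19 in the wild type and 1.69, 1.65 and 1.62 in the mutants (exact 2-sided permutation p = 0.1, the smallest that 3 against 3 can give). Without wild type 3 *Ccnb2* did pass, with a log2 fold change of 0.24 (adjusted p = 0.0041).

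**Figure D5:**
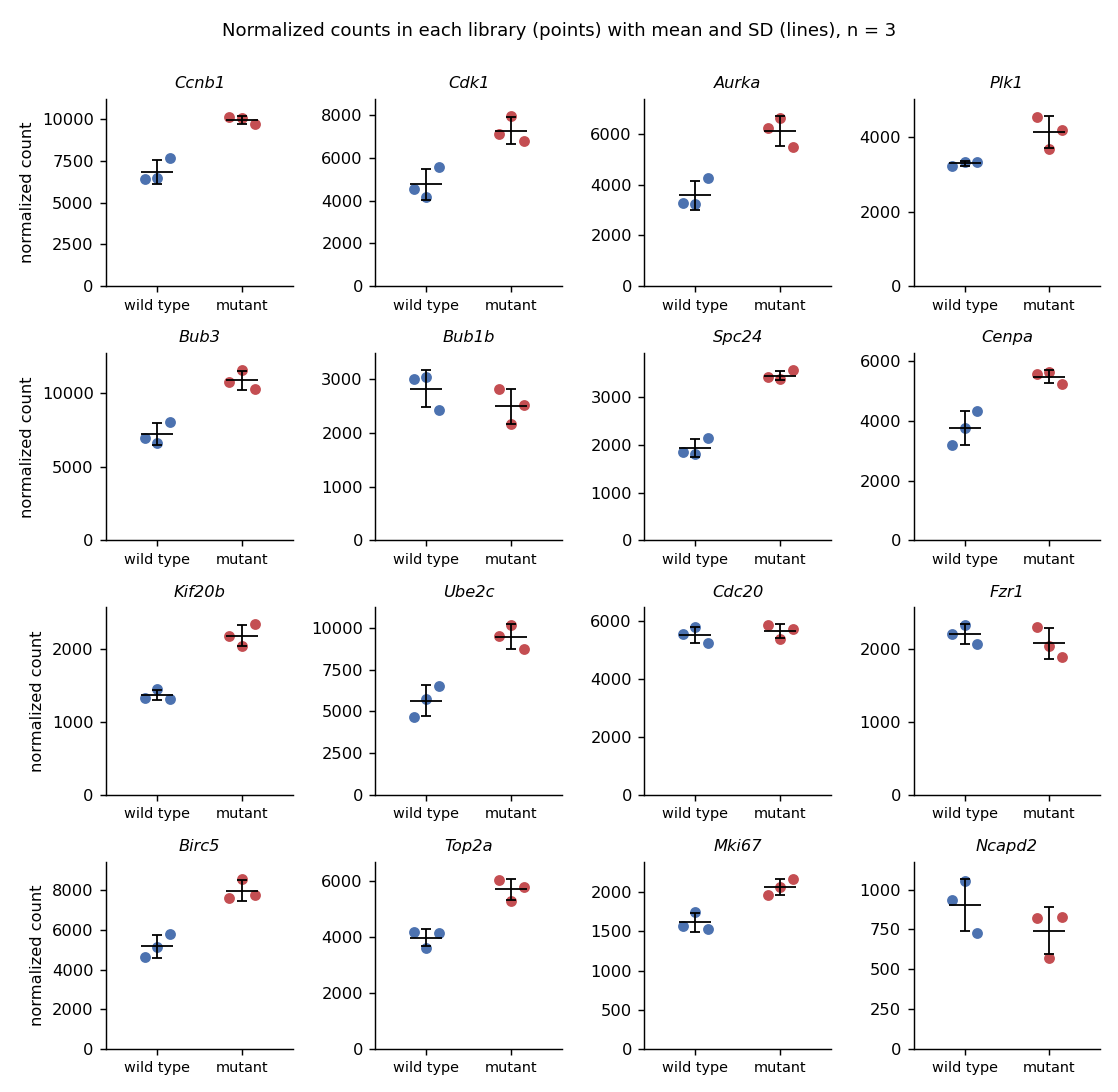
Normalised counts of 16 members in each library (points) with mean and SD (lines, n = 3), wild type in blue and mutant in red, each axis starting at 0. *Spc24*, *Aurka*, *Ube2c* and *Kif20b* separate by genotype, whereas *Bub1b*, *Cdc20*, *Fzr1* and *Ncapd2* overlap.

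Of the 5 spindle checkpoint genes, 4 were higher at adjusted p under 0.05 and 2 were called. *Bub3* encodes a kinetochore adaptor for the BUB1 and BUBR1 kinases, and had 6946, 6614 and 8025 normalised counts in the wild type and 10756, 11549 and 10271 in the mutants (log2 fold change 0.59, SE 0.08, adjusted p = 6.6e-05). *Mad2l1*, encoding MAD2, the protein that sequesters CDC20 while kinetochores are unattached, had 3467, 3499.7 and 4487 in the wild type and 5871, 5741 and 5469 in the mutants (log2 fold change 0.58, SE 0.09, adjusted p = 3.2e-04). Both were called and neither overlapped between groups. *Ttk*, encoding the checkpoint kinase MPS1, rose by a log2 fold change of 0.41 (adjusted p = 0.0099), and *Bub1* by 0.28 (adjusted p = 0.044) with overlapping groups. The remaining gene, *Bub1b*, which encodes BUBR1, had 2989.6, 3038 and 2419.8 in the wild type and 2809, 2156 and 2512 in the mutants. Its groups overlapped and it did not pass in this fit, with a log2 fold change of -0.18 (SE 0.10, adjusted p = 0.22), although without wild type 3 it was lower at -0.26 (adjusted p = 0.048) and after gene length correction its value was 0.04. The ratio of *Bub3* to *Bub1b*, a pair chosen after the values were seen, was 2.32, 2.18 and 3.32 in the wild type and 3.83, 5.36 and 4.09 in the mutants (exact 2-sided permutation p = 0.1, the smallest possible). *Ttk* had an adjusted p of 0.061 without mutant 1 and 0.056 without wild type 2, and *Bub1* of 0.077 to 0.19 without any 1 library other than wild type 3.

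The APC/C tags cyclin B and securin for destruction, and its genes in the set showed the lowest median of the sub-groups, 0.03. They also had the highest median GC content of the sub-groups, 55.2%, beside 43.2% for the spindle microtubule factors and 44.0% for the kinetochore genes. Other sub-groups did not follow this order, with 50.5% and a median log2 fold change of 0.51 for the chromosomal passenger complex. Condensin and chromosome structure genes had 41.8% and 0.36. The part of GC content in the sub-group medians was not tested. The 2 members of the APC/C and separase sub-group that rose were *Ube2c* and *Pttg1*. *Ube2c*, the ubiquitin-conjugating enzyme that works with the APC/C (chr2:164595398-164604322, plus strand, mm9), had 4648, 5753 and 6502 normalised counts in the wild type and 9541, 10189 and 8731 in the mutants. The mutants lay above all wild type libraries, with means of 5634 ± 932 (SD, n = 3) and 9487 ± 730.5, a log2 fold change of 0.75 (SE 0.10, 1.68-fold, adjusted p = 6.5e-05). Opposite-strand exons of *Tnnc2* cover 22.8% of its exons. *Pttg1*, encoding securin, the inhibitor of separase, rose by a log2 fold change of 0.29 (adjusted p = 0.036), but had adjusted p-values of 0.069 to 0.14 without any 1 library other than wild type 3.

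The co-activators of the APC/C did not pass the test without correction for GC content. *Cdc20*, the co-activator in metaphase (chr4:118105506-118109957, minus strand, mm9), had 5529, 5769 and 5223 normalised counts in the wild type and 5829.5, 5373 and 5694 in the mutants. Its log2 fold change was 0.03 (SE 0.07, adjusted p = 0.76) and -0.07 with library size as the only scaling. After GC correction *Cdc20* passed at 0.25 (adjusted p = 0.018), and after correction for length and GC it stood at 0.17 (adjusted p = 0.054). *Fzr1*, encoding CDH1, the co-activator of late mitosis and G1, had 2206, 2329 and 2062 in the wild type and 2302, 2032 and 1888 in the mutants, overlapping (log2 fold change -0.08, SE 0.09, adjusted p = 0.52). Its value was 0.13 after gene length correction, 0.23 after GC correction, and 0.36 after both, where it passed (adjusted p = 0.0048). *Espl1*, encoding separase, the protease that cuts cohesin, was close to the low end of the set in level, with 183, 261 and 205 in the wild type and 167, 234 and 185 in the mutants (log2 fold change -0.15, SE 0.21, adjusted p = 0.63).

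Of the kinesins, 4 of 7 were higher at adjusted p under 0.05 and 2 were called. *Kif20b*, a microtubule motor of cytokinesis, had 1333, 1452 and 1323 normalised counts in the wild type and 2181, 2046 and 2344 in the mutants, with means of 1369 ± 71.6 (SD, n = 3) and 2190.1 ± 149 (log2 fold change 0.68, SE 0.09, adjusted p = 5.9e-05). *Kif23*, the motor subunit of centralspindlin, had 3384, 3249 and 3636 in the wild type and 4974, 4775 and 5039.8 in the mutants (log2 fold change 0.53, SE 0.07, adjusted p = 8.4e-05). Neither overlapped between groups. *Kif11*, encoding the EG5 motor that pushes spindle poles apart, had 2555, 2412 and 2353 in the wild type and 3762, 3074 and 3353 in the mutants, with mutant 1 the highest (log2 fold change 0.48, SE 0.08, adjusted p = 8.0e-04). *Kif22*, a chromokinesin, rose by a log2 fold change of 0.28 (adjusted p = 0.021), but had adjusted p-values of 0.13 without mutant 1 and 0.092 without wild type 2. *Kif23* had a log2 fold change of 0.49 without wild type 2, which ended its call.

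The microtubule-depolymerising *Kif2c* (log2 fold change 0.11, adjusted p = 0.44) and the central spindle motor *Kif20a* (log2 fold change 0.10, adjusted p = 0.37) did not pass. The X-linked chromokinesin *Kif4* (chrX:97821076-97922553, plus strand, mm9) had 1318, 1057 and 922 normalised counts in the wild type and 1153, 958 and 1173 in the mutants. Its groups overlapped widely, with a log2 fold change of -0.01 (SE 0.13, adjusted p = 0.98) that changed sign between alternatives. Opposite-strand exons overlap 32.3% of *Kif20a* (gene *Cdc23*) and 15.1% of *Kif4* (gene *Pdzd11*).

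Of 3 cytokinesis genes, 2 were higher at adjusted p under 0.05 and 0 were called. *Racgap1*, the GTPase-activating subunit of centralspindlin, rose by a log2 fold change of 0.40 (adjusted p = 0.0016), and *Ect2*, the exchange factor that activates RhoA at the cleavage furrow, by 0.36 (adjusted p = 0.0027). *Anln*, encoding the furrow scaffold anillin, had a value of 0.27 that did not pass (adjusted p = 0.11), except without wild type 3 (0.39, adjusted p = 0.028), after gene length correction (0.48, adjusted p = 0.018) or after correction for length and GC (0.38, adjusted p = 0.032).

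Of the 7 condensin and chromosome structure genes, 5 were higher at adjusted p under 0.05 and 2 were called. *Top2a*, the topoisomerase that untangles sister chromatids (chr11:98854257-98885503, minus strand, mm9), had 4153, 3606 and 4142 normalised counts in the wild type and 6013, 5261 and 5778 in the mutants (log2 fold change 0.52, SE 0.08, adjusted p = 2.3e-04). *Smc2*, one of the ATPase arms of condensin, had 4463, 3626 and 3866 in the wild type and 5698, 5689 and 5730.1 in the mutants, with mutant libraries nearly equal (log2 fold change 0.52, SE 0.08, adjusted p = 2.4e-04). The other arm, *Smc4*, rose by a log2 fold change of 0.40 (adjusted p = 0.0011). *Mki67*, encoding the Ki-67 protein that coats mitotic chromosomes and serves as a proliferation marker, had 1571, 1749 and 1527 in the wild type and 1969, 2071 and 2176 in the mutants without overlap, with means of 1616 ± 117 (SD, n = 3) and 2072 ± 103 (log2 fold change 0.36, SE 0.09, adjusted p = 0.0069). The calls for *Smc2* and *Top2a* were lost without wild type 2 (0.45 for both), and that for *Top2a* also without mutant 1 (0.48).

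The non-SMC subunits of condensin I ranged in log2 fold change from -0.29 to 0.31. *Ncapg* rose by a log2 fold change of 0.31 (adjusted p = 0.011), with 13.3% of its exons overlapped by the opposite-strand gene *Lcorl* and adjusted p-values of 0.057 without mutant 1 and 0.068 without wild type 1. *Ncaph* had a log2 fold change of -0.0032 (adjusted p = 0.98). *Ncapd2* had 935, 1052 and 729 normalised counts in the wild type and 824, 571 and 831 in the mutants, the lowest log2 fold change of the 54 members at -0.29 (SE 0.16), which did not pass (adjusted p = 0.18). The groups overlapped, since wild type 3 was lower than mutant 1 and mutant 3. The ratio of *Smc2* to *Ncapd2*, chosen after the values were seen, was 4.77, 3.45 and 5.30 in the wild type and 6.91, 9.97 and 6.90 in the mutants, and the exact 2-sided permutation p was again 0.1. The ratio of *Spc24* to *Ndc80*, also chosen after the values were seen, was 1.29, 1.36 and 1.16 in the wild type. In the mutants it was 1.74, 1.83 and 1.77 (exact 2-sided permutation p = 0.1, the smallest possible).

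Some of this spread went together with base composition. Ranked by exon GC content, among the 18 members with the lowest values (36.1% to 43.5%), 17 were higher at adjusted p under 0.05, with a median log2 fold change of 0.50. Among the 18 in the middle (43.6% to 48.5%) these were 13 and 0.37, and among the 18 with the highest values (48.7% to 58.9%) 9 and 0.25. All tested genes within the same GC ranges had medians of 0.05, 0.02 and -0.11. By exon length the member medians were 0.41, 0.32 and 0.44 from the shortest to the longest 18, and those of all tested genes in the same ranges 0.05, -0.11 and -0.14. The part of GC content in these values was not tested beyond the corrected fits, in which 41 members were higher at adjusted p under 0.05 after GC correction and 45 after correction for length and GC.

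Across the set, 8 members were called under every normalisation, filter and correction tried and with any 1 library left out, at the same call limits: *Cdk1*, *Aurka*, *Spc24*, *Kif20b*, *Ube2c*, *Birc5*, *Prc1* and *Hmmr*. The 12 other called members fell under a log2 fold change of 0.5 in at least 1 of these fits, among them library size as the only scaling, and kept an adjusted p of at most 0.0097 in each.

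The rest of the machinery had a lower median. Of 87 further genes of chromosome segregation and mitotic entry, 86 were tested, with a median log2 fold change of 0.13. At adjusted p under 0.05, 26 were higher and 3 lower, where 13.6% and 15.1% of all tested genes were. By the call rule 10 were higher and 3 lower, beside 2.78% and 5.83% of all tested genes. By role, 8 of 14 other centromere proteins were higher at adjusted p under 0.05, beside 13.6% of all tested genes. In a list of the MIS12, KNL1 and RZZ assemblies, *Mad1l1* and the *Ska* genes, 5 of 13 were higher. So were 5 of 16 other kinesins and spindle factors, 4 of 13 entry regulators and 3 of 13 cohesin and shugoshin genes. For APC/C subunits, listed together with *Ube2s* and *Fbxo5*, the count was 1 of 14, and for other condensin genes 0 of 3. The called genes included *Tacc3*, a spindle microtubule factor that works with clathrin and ch-TOG, with 4865, 5072 and 5391 normalised counts in the wild type and 7839, 7162 and 7219 in the mutants (log2 fold change 0.54, adjusted p = 6.3e-05). *Kif18a*, the kinesin that limits microtubule length at kinetochores, had 1146, 1065 and 1444 in the wild type and 2174, 2315 and 1576 in the mutants (log2 fold change 0.73, adjusted p = 0.0012). The other called rises, given with their log2 fold changes, included *Stil* (0.64), *Cdca5* (0.54), *Esco2* (0.54), *Pbk* (0.53), *Ska3* (0.52), *Casc5* (0.52) and *Cenpl* (0.51), with adjusted p-values from 2.6e-04 to 0.0085. Of the 10 called higher, *Kif18a* alone remained called with any 1 library left out, and the others had log2 fold changes of 0.40 or more and adjusted p-values of at most 0.046 in those fits. Leaving out any of the 6 libraries ended at least 1 of these calls, and with library size as the only scaling *Kif18a* was the 1 call among them that held, while the 3 called lower stayed called.

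Among the genes that went the other way was *Foxm1*, the forkhead factor that activates G2 and M phase genes. It had 510.1, 502 and 467 normalised counts in the wild type and 319, 278 and 358 in the mutants, without overlap, and fell from 493 ± 23.2 (SD, n = 3) to 318 ± 40.2 (log2 fold change -0.63, SE 0.15, adjusted p = 0.0057). The call did not hold after correction for GC (-0.44, adjusted p = 0.029), length (-0.42, adjusted p = 0.034) or both (-0.35, adjusted p = 0.071), nor without wild type 1 (adjusted p = 0.028), wild type 2 (0.023), mutant 1 (0.021) or mutant 2 (0.033). *Mybl2*, encoding B-MYB, had 449, 384 and 412 in the wild type and 448, 326 and 341 in the mutants and did not pass (log2 fold change -0.16, adjusted p = 0.49), with values above 0 after those corrections. *Kif18b*, a microtubule-depolymerising kinesin, had 444, 481 and 274 in the wild type and 249, 159.7 and 222 in the mutants (log2 fold change -0.93, SE 0.22, adjusted p = 0.0059). The adjusted p of *Kif18b* was 0.012 to 0.025 after the corrections and 0.016 to 0.039 without wild type 1, wild type 2, mutant 2 or mutant 3. *Anapc2*, encoding the cullin subunit of the APC/C, had 2230.0, 2051 and 1776 in the wild type and 1437, 1221 and 1378 in the mutants (log2 fold change -0.59, adjusted p = 6.9e-04), with a log2 fold change of -0.33 to -0.40 after the corrections.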

How the data were processed

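Sorted EpCAM+ living cells of the E13.5 small intestine gave 3 mutant and 3 wild type libraries of 500 cells. The authors prepared cDNA by SMARTer v4 (15 cycles of PCR), read it on a NextSeq 500, aligned to mm9 and counted unique reads per UCSC gene, and the submitters' processing notes name STAR 2.5.2b, featureCounts 1.5.1 and DESeq2 1.18.1. The deposited values are raw counts, 1 table per library. The strand setting is not given in the sources used here, and reads carried no molecular identifiers.

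Of 23366 genes, 17112 had a count and 12501 passed edgeR's filterByExpr. These were tested on genotype with edgeR 4.0.16 in R 4.3.3 (TMM, quasi-likelihood, Benjamini-Hochberg adjustment over all tested genes). The call limits of 0.01, 0.5 and 50 follow the study, with the mean normalised count in place of its limit on RPKM. Normalised counts, CPM and RPKM use TMM-scaled library sizes, and RPKM also exon length. Replicates of one genotype differed by more than sampling noise.

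Library values are given for genes that were called, were among the 5 smallest p in either direction or stood on a short list of classical mitotic genes, and 1 called pathway gene is not reported here. Members, lists and rules were chosen with earlier results of these data known. Exon length, GC content, overlaps and positions came from the NCBIM37 annotation (all 54 members, 90.9% of genes), near-identical loci from BLAST+ 2.17.0 and promoters from RefSeq on GRCm38.p6, with no conversion between builds. Alternatives covered another tool (DESeq2 1.42.0), scaling, filters, call limits, a length correction, a replicate block and the removal of each library in turn. GC corrections (loess of each library's log2 CPM deviation, span 0.5) were added after the data were seen. Scripts were tested on simulated data.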

Additional observations from a re-analysis of the deposited data

How the results depend on the processing

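The count of 20 members called higher rested on the limits and the scaling. It was 8 when libraries were scaled by size alone and 31 with the gene length correction. Under changed call limits it was 0 with a fold limit of 1 on the log2 scale and 32 with no minimum fold. At a mean RPKM of at least 50 it was 13. Shares of all tested genes under these changed limits are not given here, so these counts cannot be read against a background. With 1 library left out the count of members lay between 13 (without wild type 2) and 25 (without wild type 3). Of all tested genes, 2.04% and 4.04% were called higher in those 2 fits. All 20 stayed called with DESeq2, RLE normalization, both other filters on low counts, the length and GC corrections and the replicate block. The 39 members higher at adjusted p under 0.05 were 30 to 42 with 1 library left out and 33 to 45 under the other settings. The count lower at adjusted p under 0.05 lay between 0 and 1, the 1 being *Bub1b* without wild type 3. The cause of these changes was not tested.

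The members' median log2 fold change of 0.40 was 0.29 with library size alone, 0.56 with the length correction and 0.50 with length and GC, and 0.35 to 0.49 with 1 library left out. The median of the other pathway genes, 0.13, was 0.027 with library size alone, 0.27 with length, 0.20 with GC, 0.23 with both and 0.091 to 0.16 with 1 library left out. That of the replication genes, 0.06, turned to -0.040 with library size alone, was 0.18, 0.16 and 0.13 with length, GC and both, and 0.034 to 0.13 with 1 library left out. Over all tested genes, 348 were called higher and 729 lower, 200 and 958 with library size alone, 728 and 417 with length, 834 and 440 with GC, and 713 and 382 with both.

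The named genes that turned in sign did not pass an adjusted p of 0.05 in the edgeR fit with TMM and no correction. *Bub1b* gave 0.043 with length and 0.0016 with both corrections. *Fzr1* gave 0.13, 0.23 and 0.36 with length, GC and both, and *Espl1* 0.070, 0.097 and 0.21, with -0.30 to 0.0085 when 1 library was left out. *Kif4* gave 0.018 with DESeq2, 0.016 with RLE, 0.21, 0.063 and 0.14 with length, GC and both, and -0.10 to 0.15 with 1 library left out. *Fzr1* passed with both corrections (adjusted p = 0.0048). *Cdc20* gave -0.074 with library size alone and 0.25 with GC, where it passed (adjusted p = 0.018), and *Mybl2* 0.055, 0.057 and 0.16 with length, GC and both.

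Replicate numbers showed no clear pairing of the samples: deviations of same-numbered libraries correlated at 0.0097, -0.045 and -0.018, and not every library correlated best with its own number. The deviations were centred within each genotype, which ties the correlations to one another. They therefore cannot show whether samples were collected or processed in pairs. With the replicate block 20 members were called higher, 37 were higher at adjusted p under 0.05, *Cenpk* (0.055) and *Pttg1* (0.068) no longer passing, the median was 0.40 and *Kif4* gave 0.0032.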

Other observations

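DNA replication genes, which act in S phase before mitosis, were mixed in direction. Their summed expression was 7219, 6818 and 7196 CPM in the wild type and 7474, 7161 and 7260.4 CPM in the mutants, and the groups overlapped. Of 36 replication genes tested, 9 were higher and 4 lower at adjusted p under 0.05, where 13.6% and 15.1% of all tested genes were. None was called higher and 2 of 36 were called lower, beside 2.78% and 5.83% of all tested genes, and the median log2 fold change was 0.06. Among the higher ones were *Pcna*, encoding the sliding clamp, with 5579.6, 5168 and 6501 normalised counts in the wild type and 7536, 7574 and 7147 in the mutants (log2 fold change 0.37, adjusted p = 0.0037), *Rfc5*, a subunit of the clamp loader (log2 fold change 0.35, adjusted p = 0.0031), and *Gins1*, a subunit of the replicative helicase (log2 fold change 0.45, adjusted p = 0.012).

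The 2 called decreases, a share near that of all tested genes, were *Mcm2* and *Pold1*. *Mcm2*, a subunit of the same helicase, had 5457, 4962 and 3961 normalised counts in the wild type and 3671, 2791 and 3538 in the mutants (log2 fold change -0.52, adjusted p = 0.0032). *Pold1*, the catalytic subunit of DNA polymerase delta, had 1506, 1298 and 911 in the wild type and 722, 662 and 754 in the mutants (log2 fold change -0.80, adjusted p = 0.0012). Neither gene overlapped between groups. *Mcm3* and *Mcm5* had log2 fold changes of -0.32 and -0.32, with adjusted p-values of 0.0079 and 0.0092. The call for *Mcm2* was lost without wild type 1 (adjusted p = 0.025), wild type 2 (0.017) or mutant 2 (0.021) and after correction for GC (-0.30) or length (-0.35), and that for *Pold1* without wild type 1 (adjusted p = 0.011) and after correction for GC (-0.43, adjusted p = 0.017) or for length and GC (-0.30, adjusted p = 0.072).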
